A study of Mus musculus with 16 samples.

Results

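The 36 genes described here make fatty acids and store them as triglyceride in mouse liver, and they were taken from the 19938 genes with a probe set of their own on the array. They were chosen by gene symbol as genes of this pathway, and where several probe sets carried a symbol the one of highest mean over the 16 arrays was used. Of these members 35 lay above the filter on dim probe sets and were tested among 15908 genes. The remaining member, Mogat1, a monoacylglycerol acyltransferase, lay below the 30th percentile of its array in all 16 arrays, with log2 levels between 4.91 and 5.24.

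Whole-liver RNA of male mice on a C57Bl6/J background was hybridised to single-colour whole-transcript arrays, with 4 samples in each of 4 groups. The groups were S534A given 1 mg/kg lipopolysaccharide (LPS), WT given 1 mg/kg LPS, S534A untreated and WT untreated. For the untreated S534A group the series text reads both untreated and the LPS dose, and the sample titles, which mark these samples as untreated, were followed. LPS is a bacterial endotoxin that is sensed through TLR4. S534A mice are homozygous for a knock-in allele in which a serine of p65, the NF-kB subunit encoded by Rela, is replaced by alanine in every cell. The allele came from targeted embryonic stem cells, its neo cassette was removed with Flp, and the line was backcrossed before it was bred to homozygosity. WT mice carry the unaltered gene, and the labels do not call them littermates. Neither the age of the mice nor the time between LPS and collection is given in the sources used here, and a vehicle-treated group is not among the labels. Nothing in the labels says whether each sample is a different mouse, and the p-values therefore cover the spread of these samples alone, which may be technical.

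Array medians lay between 6.25 and 6.42, and the first principal component, with 78.5% of the variance, placed LPS-treated arrays between 34.5 and 44.2 and untreated arrays between −44.0 and −39.6. Hepatocyte markers were present, with a mean log2 level of 7 measured markers between 13.47 and 13.66 in all arrays. A clock score was taken as the difference between the mean level of Per1, Per2, Per3, Dbp and Tef and the level of Arntl, and it set 3 untreated arrays apart. Untreated S534A array 3 had −2.55 and untreated WT arrays 1 and 3 had −1.70 and −1.77, against 0.96 to 3.47 in the other untreated arrays and −0.70 to 1.63 in LPS-treated arrays. The 5 comparisons were LPS against untreated in each genotype, S534A against WT among treated and among untreated livers, and the interaction. Each change is a log2 difference ± its standard error from limma, and genes were called at a Benjamini-Hochberg adjusted p under 0.05 over all 15908 genes.

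De novo lipogenesis turns surplus carbohydrate into fat. Citrate exported from mitochondria is cleaved to acetyl-CoA, acetyl-CoA carboxylase makes malonyl-CoA from it, and fatty acid synthase builds palmitate with NADPH as reductant. Elongases and desaturases then shape the chain, acyltransferases and phosphatases build triglyceride on a glycerol backbone, and the product is kept in lipid droplets or secreted in VLDL. In liver the programme is driven by insulin through SREBP1c, the product of Srebf1, and by sugar through ChREBP, the product of Mlxipl, and it follows feeding and time of day.

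After LPS most of the genes that make fatty acids and assemble triglyceride were lower in both genotypes. In S534A livers 23 of the 35 tested members fell and 2 rose, beside 31.2% of all genes lower and 14.2% higher. In WT livers 21 fell and 2 rose, beside 29.9% of all genes lower and 14.9% higher (limma, adjusted p under 0.05). As shares of the tested members, 65.7% fell in S534A and 60% in WT. The median change of the members was −0.44 in S534A and −0.45 in WT, against −0.03 and −0.05 over all genes. The arrays of the LPS-treated and untreated groups did not overlap for 22 members in S534A, all lower, where 31.7% of all genes were lower without overlap. In WT they did not overlap for 20 lower members and 1 higher member, beside 25.6% and 12.7% of all genes.

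The same 6 members fell at least 2-fold in S534A and in WT, namely G0s2, Gpam, Scd2, Srebf1, Aacs and Lpin2, while 4.26% of all genes in S534A and 3.68% in WT were called at least 2-fold lower. The members at least 2-fold higher were 0 in each, beside 4.27% of all genes in S534A and 4.48% in WT. Another 14 members fell in both genotypes by less, 1 rose in both, Cidec, and 8 were called in neither. The share of all genes called in both genotypes was not counted, so the counts of shared members have no background beside them. Fewer cells of a type and less RNA per cell cannot be told apart in whole-liver RNA. Without the 3 untreated arrays of negative clock score the counts were 21 lower and 2 higher in S534A and 22 lower and 0 higher in WT. Of all genes 31.1% in S534A and 28.1% in WT were then called lower, with 2265 and 2239 genes higher. With each array centred on its median, the median change of all genes stood at −0.13 in S534A and −0.16 in WT. The calls over all genes were then 1703 higher and 6231 lower in S534A, in place of 2258 and 4967, and 1838 and 6493 in WT, in place of 2377 and 4762. The members gave 24 lower and 2 higher in S534A and 23 lower and 1 higher in WT under that centring.

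**Figure D1:**
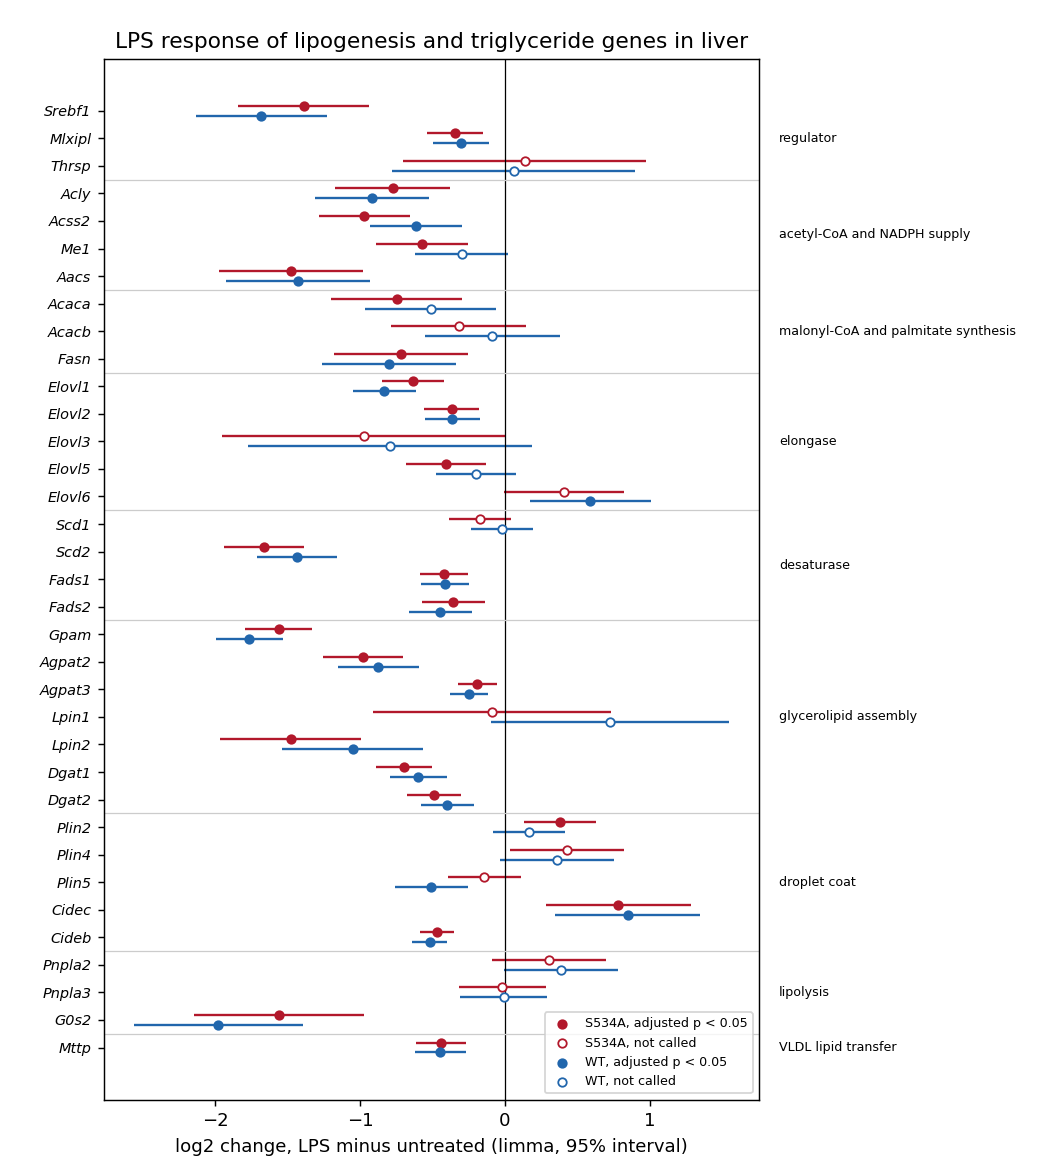
Log2 change after LPS (x axis, LPS minus untreated) of the 35 tested members, ordered by role from top to bottom, in S534A (red) and WT (blue), with points for the limma estimate, lines for its 95% interval and filled points for adjusted p under 0.05. Most filled points lie left of 0 in both genotypes, down to −1.98 for G0s2 in WT, and Cidec lies right of 0 in both, at 0.78 in S534A and 0.85 in WT.

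Promoter letters of 4 members that fell in both genotypes are shown for the motifs that SREBP1 and its partner factors are known to use. RefSeq (GRCm38.p6) promoter windows were found for 30 of the 36 members, and the 250 bases before the start were read. The capitals mark the motifs searched on both strands, which were TCACNCCA (the core of a sterol regulatory element), CACGTG (an E-box), CCAAT (bound by NF-Y) and GGGCGG (bound by Sp1). The Srebf1 window is chr11:60210472-60210721 (minus strand), the start with a CCAAT match and GGGCGG matches together among 3 annotated starts.
Srebf1: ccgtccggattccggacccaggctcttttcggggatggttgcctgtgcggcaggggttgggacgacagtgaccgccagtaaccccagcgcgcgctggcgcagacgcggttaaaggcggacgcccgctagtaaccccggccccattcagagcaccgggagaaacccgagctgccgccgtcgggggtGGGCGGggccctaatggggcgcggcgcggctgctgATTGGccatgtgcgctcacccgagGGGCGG
The Fasn window is chr11:120824548-120824797 (minus strand), where all matches are CCAAT.
Fasn: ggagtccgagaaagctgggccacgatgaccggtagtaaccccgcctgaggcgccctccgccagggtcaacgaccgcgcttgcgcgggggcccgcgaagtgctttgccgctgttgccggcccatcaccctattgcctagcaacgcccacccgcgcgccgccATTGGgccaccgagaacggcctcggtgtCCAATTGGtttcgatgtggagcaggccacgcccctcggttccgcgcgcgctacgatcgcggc
Another annotated Gpam start, with window chr19:55099478-55099727, held no TCACNCCA and 1 GGGCGG match. The Gpam window shown is chr19:55127239-55127488 (minus strand), the only window found for members that fell at least 2-fold that holds TCACNCCA. It also holds 1 CCAAT match.
Gpam: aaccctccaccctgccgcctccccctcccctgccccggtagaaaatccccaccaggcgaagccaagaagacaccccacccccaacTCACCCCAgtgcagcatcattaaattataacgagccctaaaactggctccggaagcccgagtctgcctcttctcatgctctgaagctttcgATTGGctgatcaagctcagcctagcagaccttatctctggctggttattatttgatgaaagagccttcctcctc
The Acss2 window is chr2:155517793-155518042 (plus strand), with 4 GGGCGG matches and 1 CCAAT match.
Acss2: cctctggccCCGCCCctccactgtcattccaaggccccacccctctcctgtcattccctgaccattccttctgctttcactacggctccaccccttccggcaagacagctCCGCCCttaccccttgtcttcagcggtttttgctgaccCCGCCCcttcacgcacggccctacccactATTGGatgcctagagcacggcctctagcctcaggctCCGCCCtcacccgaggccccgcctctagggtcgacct

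No 2 different motifs overlapped in these windows, and the paired CCAAT matches of Fasn share letters on opposite strands. TCACNCCA was found in 2 of the 41 member windows (4.88%), those of Gpam and Mlxipl, and in 3.67% of all 32851 windows. CACGTG was found in 7.32% of member windows and 6.02% of all windows, and CCAAT in 39.0% and 33.8%. GGGCGG was found in 48.8% of member windows and 32.7% of all windows. For the 20 members that fell in both genotypes, 24 windows of 16 genes were found. Of these windows 62.5% held GGGCGG, 33.3% held CCAAT, and 8.33% each held TCACNCCA and CACGTG. The Aacs window held none of the motifs. A match describes these letters only, and no test was made of the shares.

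Of the 3 regulators, Srebf1 and Mlxipl fell in both genotypes and Thrsp was not called. Srebf1, which encodes the sterol-sensitive activator of fatty acid synthesis genes, had 9.13, 8.77, 9.03 and 9.28 in LPS-treated S534A arrays, against 10.55, 10.77, 9.98 and 10.47 in untreated S534A arrays. WT livers showed 8.85, 9.36, 8.81 and 8.92 after LPS, against 10.71, 11.29, 10.08 and 10.59 untreated. All LPS-treated arrays lay below all untreated ones, the closest being LPS-treated WT array 2 and untreated S534A array 3. Srebf1 fell by 1.39 ± 0.21 in S534A (2.62-fold, adjusted p = 4.46e-05) and by 1.68 ± 0.21 in WT (3.21-fold, adjusted p = 5.76e-06).

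Mlxipl, the carbohydrate-responsive activator, had 10.72, 10.86, 10.75 and 10.84 in LPS-treated S534A arrays, against 11.04, 11.10, 11.27 and 11.15 without treatment. Among WT arrays the values were 10.63, 10.76, 10.79 and 10.88 after LPS, against 10.85, 11.22, 10.93 and 11.26 untreated. The groups stood apart in S534A, while in WT the highest LPS-treated array passed the lowest untreated one. The fall was small, −0.35 ± 0.09 in S534A (adjusted p = 0.0052) and −0.30 ± 0.09 in WT (adjusted p = 0.0125), and the WT call was lost with only the WT groups in the fit (adjusted p = 0.0526). Thrsp, or Spot 14, a lipogenic protein induced by thyroid hormone and carbohydrate, had 11.14, 10.32, 11.37 and 11.74 in LPS-treated S534A arrays, against 11.42, 11.48, 9.91 and 11.20 untreated. WT arrays gave 10.94, 11.42, 11.37 and 10.86 after LPS, against 11.35, 12.05, 10.06 and 10.90 untreated. Its untreated arrays spanned more than its LPS-treated ones, and its change was 0.14 ± 0.40 in S534A and 0.06 ± 0.40 in WT (adjusted p = 0.807 and 0.926).

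**Figure D2:**
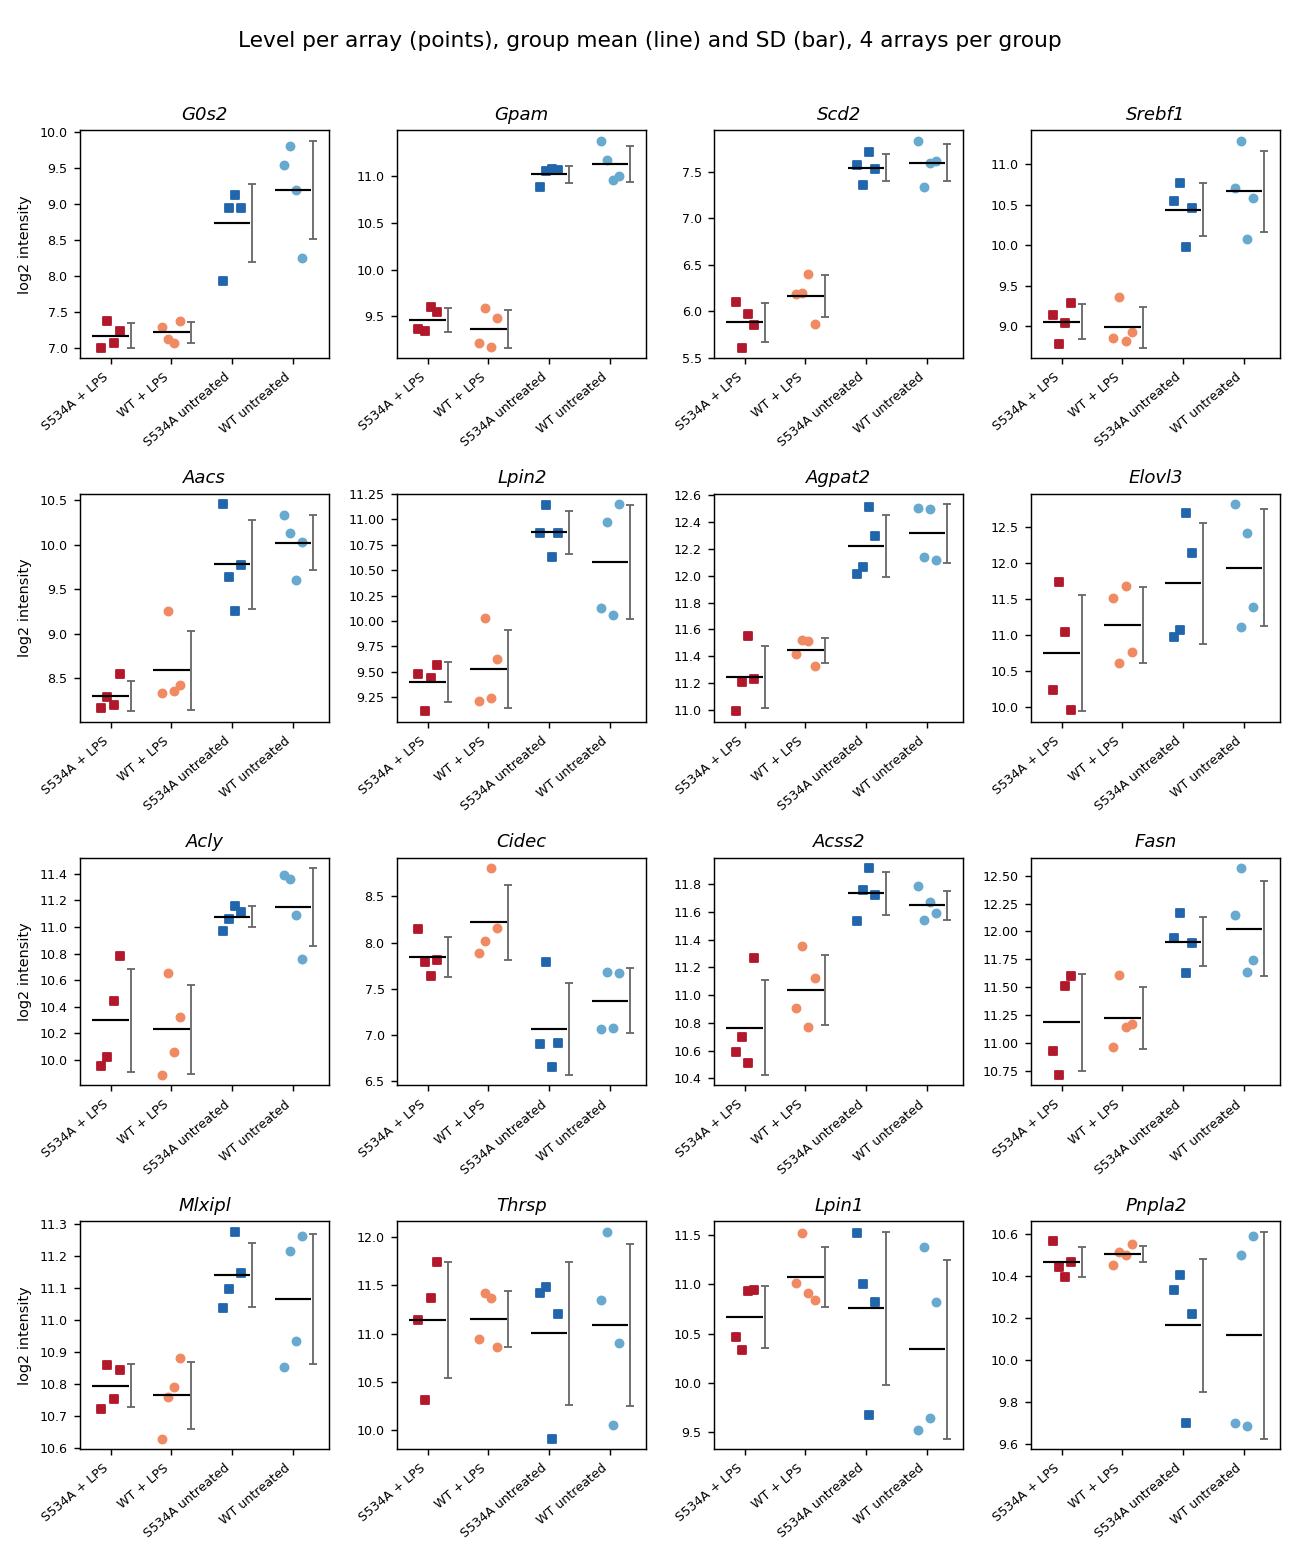
Log2 intensity (y axis) in each of the 16 arrays for 16 members, with S534A + LPS, WT + LPS, S534A untreated and WT untreated from left to right, points for arrays, lines for group means and bars for the SD (n = 4). In the panels of G0s2, Gpam, Scd2, Srebf1 and Aacs all LPS-treated points lie below all untreated ones, and Lpin1 and Pnpla2 each have 3 untreated points far below the rest.

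The enzymes that supply acetyl-CoA and NADPH fell, 4 of 4 in S534A and 3 of 4 in WT. Aacs, which activates acetoacetate in the cytosol for lipid synthesis, had 8.17, 8.29, 8.20 and 8.55 in LPS-treated S534A arrays, against 10.45, 9.63, 9.26 and 9.77 untreated, and 8.33, 9.26, 8.36 and 8.42 in LPS-treated WT arrays, against 10.33, 10.13, 9.60 and 10.03 untreated. LPS-treated WT array 2 was the highest of the treated arrays and lay level with untreated S534A array 3. Aacs fell by 1.48 ± 0.23 in S534A (adjusted p = 5.93e-05) and by 1.43 ± 0.23 in WT (adjusted p = 8.51e-05). Acly, which cleaves citrate to acetyl-CoA, had 9.95, 10.03, 10.44 and 10.78 in LPS-treated S534A arrays, against 10.97, 11.06, 11.16 and 11.11 untreated, and 9.89, 10.65, 10.06 and 10.33 in LPS-treated WT arrays, against 11.39, 11.36, 11.09 and 10.76 untreated. The groups stood apart in both genotypes, and the change was −0.78 ± 0.19 in S534A and −0.92 ± 0.19 in WT (adjusted p = 0.00246 and 0.000635).

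Acss2, which makes acetyl-CoA from acetate, had 10.59, 10.70, 10.51 and 11.26 in LPS-treated S534A arrays, against 11.54, 11.76, 11.92 and 11.73 untreated. The WT arrays had 10.90, 11.35, 10.77 and 11.12 after LPS, against 11.78, 11.54, 11.68 and 11.59 untreated. All treated arrays were below all untreated ones, with changes of −0.97 ± 0.15 in S534A (adjusted p = 4.55e-05) and −0.61 ± 0.15 in WT (adjusted p = 0.00282). Me1, the cytosolic malic enzyme that yields NADPH, fell in S534A (−0.57 ± 0.15, adjusted p = 0.00491) and stood at −0.30 ± 0.15 in WT (adjusted p = 0.126). Its WT value passed with arrays centred on their medians (−0.40, adjusted p = 0.032) and with array quality weights (−0.43, adjusted p = 0.0268). Its other probe set gave differences of −0.67 in S534A and −0.30 in WT.

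Of the 3 genes that make malonyl-CoA and palmitate, Fasn fell in both genotypes, Acaca in S534A, and Acacb was not called. Fasn, fatty acid synthase, had 10.93, 10.72, 11.51 and 11.61 in LPS-treated S534A arrays, against 11.95, 12.16, 11.63 and 11.90 untreated. WT livers showed 10.97, 11.61, 11.14 and 11.17 after LPS, against 12.15, 12.57, 11.64 and 11.74 untreated. The groups did not overlap within a genotype, but LPS-treated S534A arrays 3 and 4 and LPS-treated WT array 2 came close to the lowest untreated arrays. Fasn fell by 0.72 ± 0.22 in S534A (adjusted p = 0.0122) and by 0.80 ± 0.22 in WT (adjusted p = 0.00626). Without LPS-treated S534A array 2 the S534A change was −0.56 (adjusted p = 0.0511).

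Acaca, the carboxylase of the cytosol that feeds fatty acid synthesis, changed by −0.75 ± 0.21 in S534A (adjusted p = 0.00846) and by −0.51 ± 0.21 in WT (adjusted p = 0.0632). The WT value passed the threshold without LPS-treated WT array 2 (−0.71, adjusted p = 0.00813) and without untreated WT array 3 (−0.64, adjusted p = 0.027). It also passed with arrays centred on their medians (−0.61, adjusted p = 0.0308), with array quality weights (−0.48, adjusted p = 0.0451) and without the 3 untreated arrays of negative clock score (−0.83, adjusted p = 0.00889). Its other probe set gave differences of −0.81 in S534A and −0.29 in WT. Acacb, the carboxylase whose malonyl-CoA restrains fatty acid oxidation, stood at −0.32 ± 0.22 in S534A and −0.09 ± 0.22 in WT (adjusted p = 0.26 and 0.803).

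Of the 5 elongases 3 fell in S534A, and 2 fell and 1 rose in WT. Elovl1, which extends saturated and monounsaturated very long chains, fell in both, with changes of −0.63 ± 0.10 in S534A and −0.83 ± 0.10 in WT and no overlap (adjusted p = 7.33e-05 and 4.09e-06). Elovl2, which extends long polyunsaturated chains, changed by −0.37 ± 0.09 in S534A and −0.36 ± 0.09 in WT (adjusted p = 0.0029 and 0.00298). Elovl5, an elongase of polyunsaturated chains, fell in S534A (−0.40 ± 0.13, adjusted p = 0.0176) and stood at −0.20 ± 0.13 in WT (adjusted p = 0.247). The S534A call was lost without LPS-treated S534A array 3 (−0.28, adjusted p = 0.0734) or untreated S534A array 3 (−0.30, adjusted p = 0.0693). Elovl6, which extends palmitate to stearate and is a known SREBP1c target, went the other way and rose in WT (0.59 ± 0.20, adjusted p = 0.0209), with 0.41 ± 0.20 in S534A (adjusted p = 0.103).

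Elovl6 had 12.09, 12.10, 12.06 and 11.97 in LPS-treated S534A arrays, against 12.05, 11.76, 11.07 and 11.70 untreated, and 11.95, 12.02, 11.82 and 11.95 in LPS-treated WT arrays, against 11.30, 11.86, 10.74 and 11.48 untreated. Treated arrays lay close together, and the untreated ones ran wide, down to WT array 3. Without that array the WT change was 0.39 (adjusted p = 0.0814), and with each array centred on its median 0.49 (adjusted p = 0.061). Without the 3 untreated arrays of negative clock score it was 0.27 (adjusted p = 0.0814). In S534A it passed as higher without untreated S534A array 1 (0.54, adjusted p = 0.0384), without untreated WT array 3 (0.41, adjusted p = 0.047) and with array quality weights (0.37, adjusted p = 0.0454). Elovl3, a strongly rhythmic elongase of very long saturated chains, had 10.24, 11.75, 11.05 and 9.97 in LPS-treated S534A arrays, against 10.97, 11.07, 12.70 and 12.15 untreated. Among WT arrays the values were 11.52, 10.61, 11.69 and 10.77 after LPS, against 12.82, 11.12, 12.43 and 11.40 untreated. The groups overlapped widely, with changes of −0.97 ± 0.46 in S534A and −0.80 ± 0.46 in WT (adjusted p = 0.101 and 0.188). The S534A change was −1.30 without LPS-treated S534A array 2 (adjusted p = 0.0344) and −1.10 with array quality weights (adjusted p = 0.0192).

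Of the 4 desaturases 3 fell in both genotypes, and Scd1 was called in neither. Scd2, a stearoyl-CoA desaturase that introduces a double bond into saturated chains, had 6.10, 5.61, 5.97 and 5.84 in LPS-treated S534A arrays, against 7.58, 7.36, 7.71 and 7.53 untreated. WT arrays gave 6.19, 6.20, 6.40 and 5.86 after LPS, against 7.83, 7.34, 7.60 and 7.62 untreated. Every treated array lay well below every untreated one, and Scd2 fell by 1.66 ± 0.13 in S534A (3.17-fold, adjusted p = 1.89e-08) and by 1.44 ± 0.13 in WT (2.71-fold, adjusted p = 1.18e-07). Scd1, the main stearoyl-CoA desaturase of hepatocytes, ran from 13.14 to 13.76 in LPS-treated S534A arrays and from 13.59 to 13.73 in untreated ones. In WT it ran from 13.39 to 13.67 after LPS and from 13.50 to 13.61 untreated. Its change was −0.17 ± 0.10 in S534A and −0.02 ± 0.10 in WT (adjusted p = 0.183 and 0.908), and the WT interval was −0.23 to 0.20. In S534A it passed as lower with arrays centred on their medians (−0.27, adjusted p = 0.0416), with array quality weights (−0.19, adjusted p = 0.0484) and without LPS-treated S534A array 1 (−0.27, adjusted p = 0.0263). Fads1 and Fads2, the desaturases of polyunsaturated fatty acid synthesis, changed by −0.42 ± 0.08 and −0.36 ± 0.10 in S534A and by −0.42 ± 0.08 and −0.45 ± 0.10 in WT, all called (adjusted p between 0.00031 and 0.00933).

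Of 7 tested glycerolipid assembly genes 6 fell in each genotype. Gpam had the largest change of the 7, in S534A close to that of Lpin2. Gpam, the mitochondrial glycerol-3-phosphate acyltransferase that commits acyl-CoA to glycerolipid, had 9.36, 9.34, 9.59 and 9.55 in LPS-treated S534A arrays, against 10.89, 11.05, 11.08 and 11.06 untreated. The WT arrays had 9.22, 9.58, 9.17 and 9.48 after LPS, against 11.38, 11.17, 10.96 and 11.00 untreated. The gap between treated and untreated arrays was wider than the spread inside any group. Gpam fell by 1.56 ± 0.11 in S534A (2.95-fold, adjusted p = 4.60e-09) and by 1.76 ± 0.11 in WT (3.40-fold, adjusted p = 9.74e-10).

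The acyltransferase of the next step, Agpat2, had 10.99, 11.21, 11.55 and 11.23 in LPS-treated S534A arrays, against 12.01, 12.07, 12.51 and 12.30 untreated, and 11.41, 11.52, 11.51 and 11.33 in LPS-treated WT arrays, against 12.51, 12.14, 12.50 and 12.12 untreated. Its groups stood apart, with changes of −0.98 ± 0.13 in S534A and −0.87 ± 0.13 in WT (adjusted p = 1.06e-05 and 3.65e-05). Agpat3, of the same enzyme class, changed less, by −0.19 ± 0.06 in S534A and −0.25 ± 0.06 in WT (adjusted p = 0.0214 and 0.00392), and the S534A call was lost without LPS-treated S534A array 1 or 4 or untreated S534A array 3 or 4 (adjusted p from 0.0539 to 0.0778). The last step is shared by Dgat1 and Dgat2, the diacylglycerol acyltransferases. Dgat1 changed by −0.70 ± 0.09 in S534A and −0.60 ± 0.09 in WT, and Dgat2 by −0.49 ± 0.09 and −0.40 ± 0.09, all called, with no overlap between treated and untreated arrays.

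Of the lipins, phosphatases that turn phosphatidate into diacylglycerol, Lpin2 fell in both genotypes and Lpin1 was called in neither. Lpin2 had 9.47, 9.11, 9.44 and 9.56 in LPS-treated S534A arrays, against 10.87, 11.14, 10.63 and 10.86 untreated. WT livers showed 9.21, 10.03, 9.24 and 9.63 after LPS, against 10.13, 10.97, 10.06 and 11.15 untreated. Treated and untreated arrays did not overlap within a genotype, though LPS-treated WT array 2 nearly reached untreated WT array 3. Lpin2 fell by 1.48 ± 0.23 in S534A (2.79-fold, adjusted p = 4.97e-05) and by 1.05 ± 0.23 in WT (2.07-fold, adjusted p = 0.00119). Lpin1, which besides its enzyme activity acts as a transcriptional coactivator in liver, stood at −0.09 ± 0.39 in S534A and 0.73 ± 0.39 in WT (adjusted p = 0.876 and 0.147). Its WT value passed as higher without untreated WT array 2 (1.07, adjusted p = 0.0253) and with array quality weights (0.99, adjusted p = 0.0216).

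Lipid droplet genes went both ways. Cidec, a droplet protein that promotes fusion into larger droplets, had 8.15, 7.79, 7.64 and 7.82 in LPS-treated S534A arrays, against 6.91, 7.79, 6.65 and 6.91 untreated. Among WT arrays the values were 7.89, 8.02, 8.81 and 8.16 after LPS, against 7.06, 7.68, 7.07 and 7.67 untreated. Every LPS-treated WT array was above every untreated one, while untreated S534A array 2 lay within the range of the treated S534A arrays. The adipocyte markers Adipoq, Retn and Fabp4 were highest in the same array as Cidec in 3 of the groups, at 5.84, 7.50 and 9.06 in LPS-treated S534A array 1, at 6.36, 7.94 and 9.36 in LPS-treated WT array 3 and at 6.01, 7.50 and 8.17 in untreated S534A array 2. The other arrays of these groups had Adipoq up to 5.55, 5.47 and 5.43. Of the other measured adipocyte markers, Plin1 was also highest in these arrays, while Car3, Lipe, Lep and Cidea were not highest in all 3. Car3 was lowest in LPS-treated S534A array 1, at 13.48. In untreated WT, Cidec, Retn and Fabp4 were highest in array 2 and Adipoq in array 4, at 6.04. Adipose RNA in these samples was not tested as a part of the Cidec values. Cidec rose by 0.78 ± 0.24 in S534A (1.72-fold, adjusted p = 0.0118) and by 0.85 ± 0.24 in WT (1.80-fold, adjusted p = 0.00712). Its change was 0.68 in S534A without LPS-treated S534A array 1 (adjusted p = 0.0403), 1.02 in S534A without untreated S534A array 2 (adjusted p = 0.000776) and 0.65 in WT without LPS-treated WT array 3 (adjusted p = 0.0304). The WT call was lost without the 3 untreated arrays of negative clock score (0.54, adjusted p = 0.107). Cideb, a relative that loads lipid onto VLDL in hepatocytes, fell in both, with changes of −0.47 ± 0.06 in S534A and −0.52 ± 0.06 in WT and no overlap (adjusted p = 3.39e-06 and 1.11e-06).

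The perilipins coat droplets and govern access of lipases. Plin2, the main perilipin of hepatocytes, rose in S534A (0.38 ± 0.12, adjusted p = 0.0135) and stood at 0.17 ± 0.12 in WT (adjusted p = 0.282), and the S534A call was lost without untreated S534A array 1 (0.27, adjusted p = 0.0567). Plin5, which couples droplets to mitochondria, fell in WT (−0.51 ± 0.12, adjusted p = 0.00214) and stood at −0.14 ± 0.12 in S534A (adjusted p = 0.366). Plin4 stood at 0.43 ± 0.19 in S534A and 0.36 ± 0.19 in WT (adjusted p = 0.071 and 0.135). It passed as higher in S534A without LPS-treated S534A array 2 (0.59, adjusted p = 0.0144), without LPS-treated WT array 3 (adjusted p = 0.0489) and with array quality weights (0.38, adjusted p = 0.0315). Like Adipoq, Retn and Fabp4, Plin4 was highest in LPS-treated S534A array 1 (7.89), LPS-treated WT array 3 (7.62) and untreated S534A array 2 (7.11). In untreated WT its highest array was 3 (7.05). Adipose RNA was not tested as a part of the Plin4 values either.

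Among the genes of lipolysis and export, G0s2 and Mttp fell. G0s2, an inhibitor of the lipase encoded by Pnpla2, had 7.01, 7.38, 7.07 and 7.24 in LPS-treated S534A arrays, against 7.93, 8.94, 9.12 and 8.95 untreated. WT arrays gave 7.29, 7.13, 7.07 and 7.38 after LPS, against 9.55, 9.80, 9.19 and 8.24 untreated. The 8 treated arrays lay between 7.01 and 7.38, and the untreated ones ran from 7.93 to 9.80, all above them. G0s2 fell by 1.56 ± 0.28 in S534A (2.95-fold, adjusted p = 0.000174) and by 1.98 ± 0.28 in WT (3.94-fold, adjusted p = 1.65e-05). Pnpla2, adipose triglyceride lipase, stood at 0.30 ± 0.19 in S534A and 0.39 ± 0.19 in WT (adjusted p = 0.205 and 0.106). In WT it passed as higher without untreated WT array 2 (0.51, adjusted p = 0.038) or 4 (0.54, adjusted p = 0.0203) and with array quality weights (0.62, adjusted p = 0.00327). Pnpla3, a lipid droplet hydrolase known in humans for a variant linked to fatty liver, stood at −0.02 ± 0.14 in S534A and −0.01 ± 0.14 in WT. Mttp, which loads triglyceride onto apolipoprotein B, changed by −0.44 ± 0.08 in S534A and −0.45 ± 0.08 in WT (adjusted p = 0.000311 and 0.000287).

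Some members stood apart in the 3 untreated arrays of negative clock score. Lpin1 and Pnpla2 were singled out after their values were seen. Lpin1 had 10.47, 10.34, 10.93 and 10.94 in LPS-treated S534A arrays, against 11.52, 11.01, 9.68 and 10.82 untreated, and 11.01, 11.52, 10.91 and 10.85 in LPS-treated WT arrays, against 9.53, 11.38, 9.64 and 10.82 untreated. The 3 untreated arrays with a negative clock score, WT 1 and 3 and S534A 3, were the lowest of all 16. Pnpla2 had 10.57, 10.44, 10.40 and 10.47 in LPS-treated S534A arrays, against 10.33, 10.41, 9.70 and 10.22 untreated, and 10.45, 10.51, 10.50 and 10.55 in LPS-treated WT arrays, against 9.70, 10.50, 9.69 and 10.59 untreated. The same 3 arrays lay between 9.69 and 9.70, below the other 13 arrays, which lay between 10.22 and 10.59. Elovl3 ran the other way, and these 3 arrays were its highest of all 16, at 12.70 in S534A and 12.82 and 12.43 in WT. Gpam did not set these arrays apart, with 11.08 in S534A array 3 and 11.38 and 10.96 in WT arrays 1 and 3, within or above the range of the other untreated arrays.

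With the clock score as a covariate in the limma fit, Pnpla2 was called higher after LPS in S534A (0.38, adjusted p = 0.000754) and WT (0.40, adjusted p = 0.000479), Lpin1 in WT (0.75, adjusted p = 0.000377) and Elovl6 in S534A (0.48, adjusted p = 0.00276). Elovl3 was then called lower in S534A (−1.15, adjusted p = 0.000461) and WT (−0.82, adjusted p = 0.00644), and Acaca in WT (−0.50, adjusted p = 0.0076). The members gave 24 lower and 4 higher in S534A and 23 lower and 4 higher in WT in that fit. Of all genes it called 33.2% lower in S534A and 32.3% in WT, with 2491 and 2591 genes higher. Without the 3 arrays, Elovl5 and Agpat3 were no longer called in S534A (adjusted p = 0.0671 and 0.0773), nor Elovl6 in WT. Pnpla2, Lpin1 and Elovl3 were called in neither genotype without them, and Elovl6 was not called in S534A. The untreated WT arrays then left, 2 and 4, had 11.38 and 10.82 for Lpin1, against 10.85 to 11.52 after LPS. They had 10.50 and 10.59 for Pnpla2, against 10.45 to 10.55, and 11.12 and 11.40 for Elovl3, against 10.61 to 11.69. The part of collection time in any of these values was not tested.

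**Figure D3:**
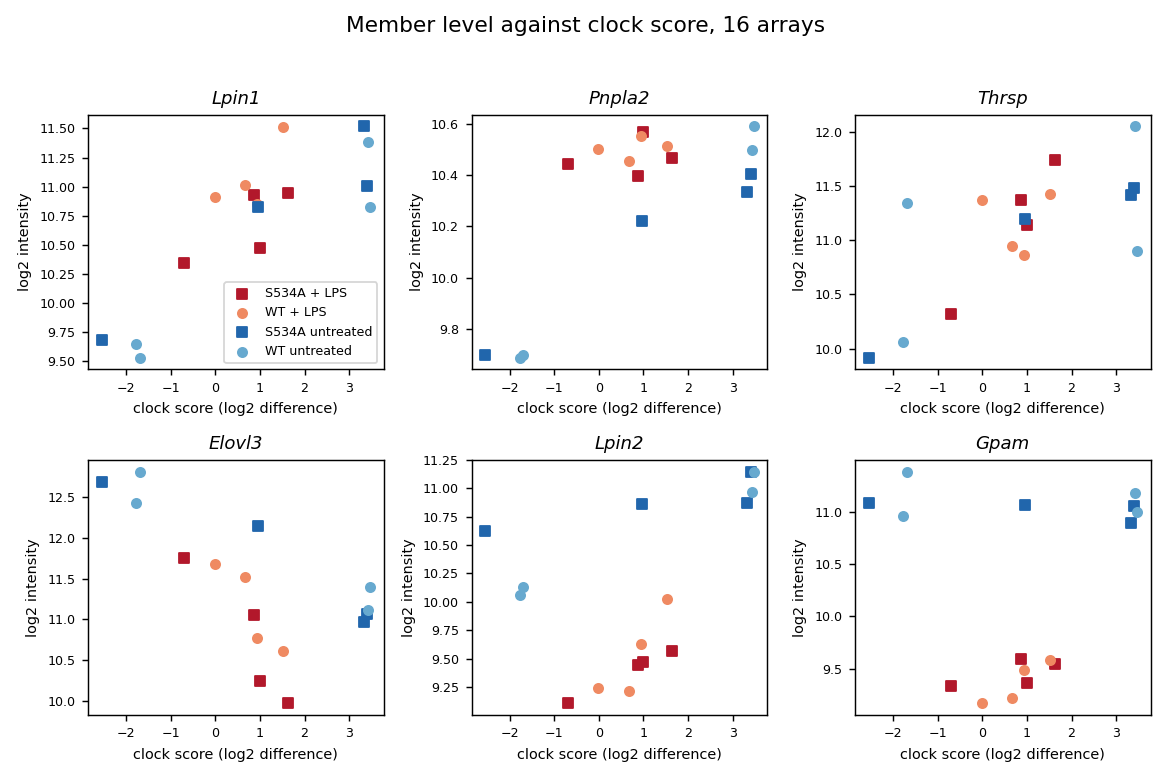
Log2 intensity (y axis) of 6 members against the clock score (x axis, a log2 difference) in the 16 arrays, with red and orange points for LPS-treated and blue points for untreated arrays, squares for S534A and circles for WT. Lpin1 and Pnpla2 are lowest in the 3 untreated arrays of clock score below 0 and Elovl3 is highest there, while Gpam is high in untreated arrays at both ends of the score. LPS-treated arrays lie between −0.70 and 1.63, where 1 untreated array, S534A 4, is found.

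Between genotypes no member was called in any of the 3 comparisons. After LPS 0 of 15908 genes were called (0% of genes), without treatment 2 (0.0126%, with 0.00629% higher, also at least 2-fold, and 0.00629% lower), and in the interaction 0 (0%), by limma at an adjusted p under 0.05. At an unadjusted p under 0.05 there was 1 of 35 members in each comparison, beside 477, 1412 and 766 of all genes. After LPS the 5 members of lowest p were Scd2 (−0.28 ± 0.13), Acss2 (−0.27 ± 0.15), Fads2 (0.19 ± 0.10), Plin5 (0.22 ± 0.12) and Cidec (−0.37 ± 0.24), with an adjusted p of 0.9996 each. The 35 differences ran from −0.40 to 0.22, and no member's groups stood apart, where 0.742% of all genes were higher and 1.29% lower without overlap. The 95% interval of the difference after LPS was −0.38 to 0.52 for Srebf1, −0.13 to 0.33 for Gpam, −0.50 to 0.43 for Fasn and −0.63 to 0.54 for G0s2.

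In untreated livers the 5 members of lowest p were Elovl1 (−0.27 ± 0.10, adjusted p = 0.46), Cideb (−0.11 ± 0.06), G0s2 (−0.46 ± 0.28), Elovl6 (0.30 ± 0.20) and Plin2 (−0.18 ± 0.12), the last 4 with adjusted p between 0.614 and 0.738. Cideb had 12.87, 12.91, 12.88 and 12.94 in untreated S534A arrays, against 13.01, 13.04, 12.96 and 13.03 in untreated WT arrays. It was the only member whose genotypes did not overlap, 1 of 35 (2.86%), where 3.62% of all genes were lower and 2.07% higher without overlap. With array quality weights Elovl1 was called lower in S534A (−0.35, adjusted p = 0.0472), in a fit that called 370 genes in place of 2. In the interaction, where a positive value means a higher LPS effect in S534A than in WT, the lowest p values were those of Plin5 (0.37 ± 0.17), Acss2 (−0.36 ± 0.21), Lpin1 (−0.82 ± 0.55), Elovl1 (0.20 ± 0.15) and Gpam (0.20 ± 0.15), with an adjusted p of 0.951 each. The 95% interval of the interaction was −0.35 to 0.93 for Srebf1, −0.58 to 0.73 for Fasn and −0.41 to 1.24 for G0s2.

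**Figure D4:**
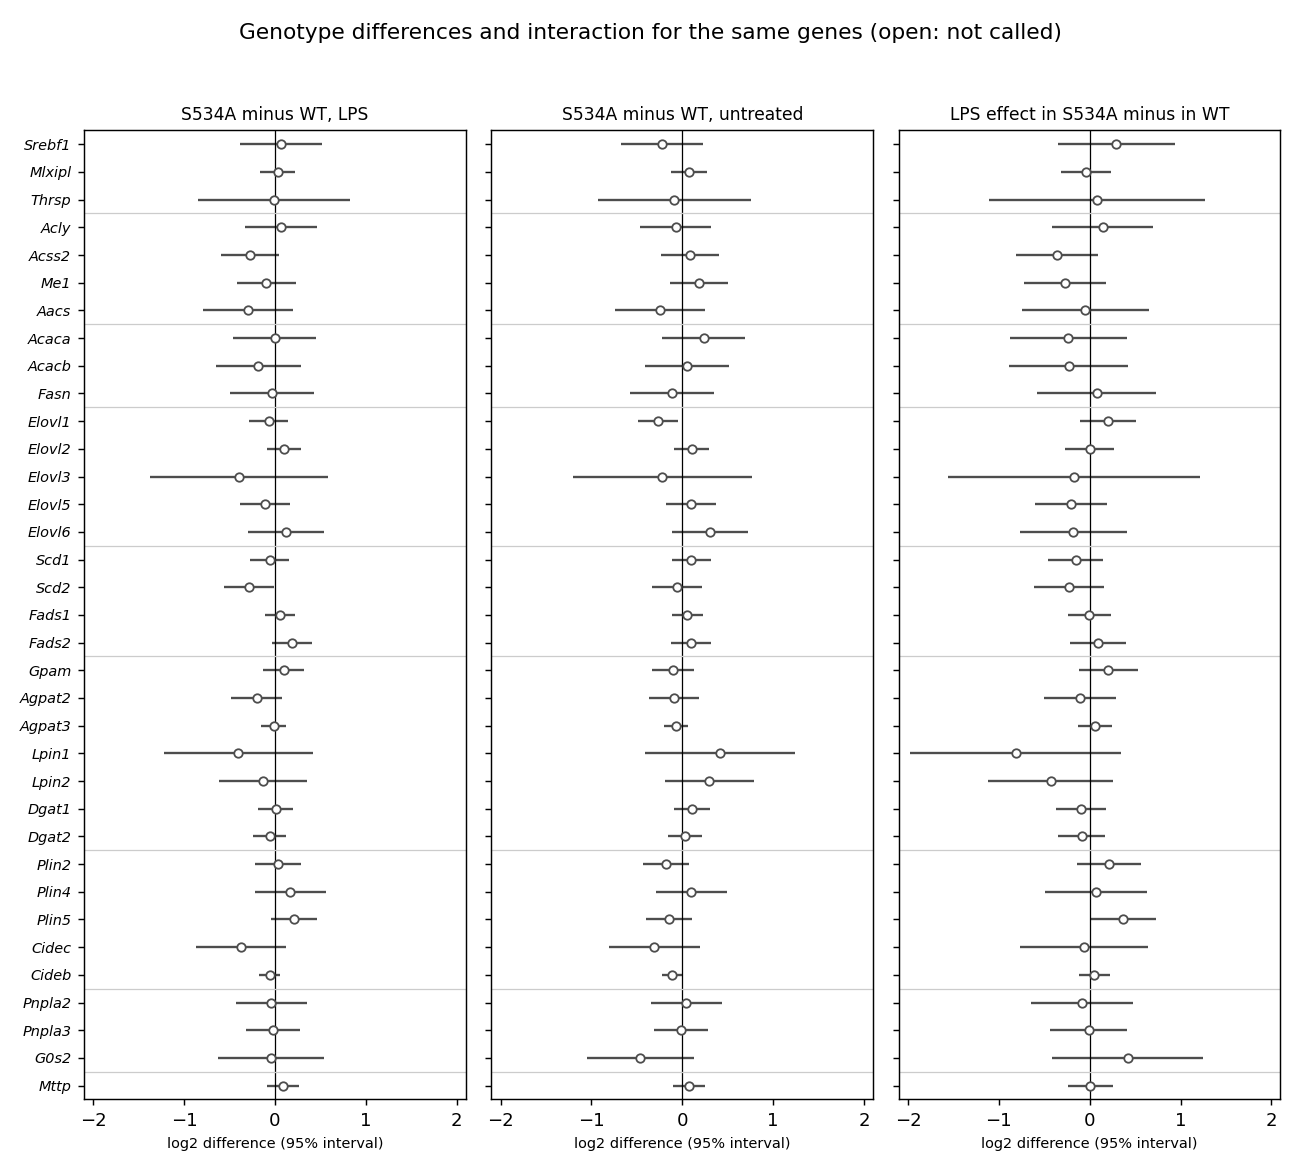
Log2 differences (x axes, limma estimate with its 95% interval) of the 35 tested members for S534A minus WT after LPS, S534A minus WT untreated, and the interaction, from left to right. All points are open because none was called, and the widest intervals belong to Elovl3, Lpin1 and Thrsp.

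Other genes of the same pathways were read from 6 lists with 100 genes, of which 90 were tested. In S534A 47 of the 90 fell and 7 rose, beside 31.2% of all genes lower and 14.2% higher. In WT 45 fell and 13 rose, beside 29.9% and 14.9% of all genes, and the median changes were −0.29 in S534A and −0.23 in WT. By list, 50% to 85.7% were called in S534A and 57.1% to 81% in WT, apart from uptake and export with 31.2% and 43.8%, below the 45.4% and 44.9% of all genes. Of 21 control genes of SREBP1c, LXR and ChREBP 15 fell and 3 rose in S534A, and 13 fell and 4 rose in WT. The insulin receptor substrate Irs1 changed by −2.31 ± 0.13 in S534A and −2.48 ± 0.13 in WT. Mid1ip1, a partner of Thrsp that activates acetyl-CoA carboxylase, changed by −2.26 ± 0.25 in S534A and −2.35 ± 0.25 in WT, and Scap, the escort of SREBP proteins, by −0.44 ± 0.07 and −0.58 ± 0.07. The genes that rose were Insr (0.55 ± 0.10 in S534A and 0.73 ± 0.10 in WT), Usf1 (0.56 ± 0.09 and 0.43 ± 0.09) and Irs2 (0.87 ± 0.24 and 0.96 ± 0.24), with Foxo1 in WT (0.32 ± 0.10).

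Of 12 glycolytic and pentose phosphate genes 7 fell in S534A, and 6 fell and 1 rose, Pgd, in WT (0.34 ± 0.13). The mitochondrial citrate carrier Slc25a1 changed by −0.39 ± 0.06 in S534A and −0.41 ± 0.06 in WT, with Idh1 at −0.34 ± 0.06 and −0.24 ± 0.06 and Tkt at −0.41 ± 0.09 and −0.34 ± 0.09. Of 14 other glycerolipid and phospholipid enzymes 7 fell in S534A and 8 in WT. Lpcat3, which makes polyunsaturated phosphatidylcholine, changed by −1.58 ± 0.10 in S534A and −1.38 ± 0.10 in WT, Cds2 by −0.88 ± 0.10 and −0.81 ± 0.10, and Pcyt1a by −0.66 ± 0.10 and −0.65 ± 0.10. Of 11 other elongation and acyl-CoA genes 5 fell and 1 rose in S534A, and 4 fell and 3 rose in WT. Mlycd, which degrades malonyl-CoA, changed by −1.09 ± 0.12 in S534A and −1.01 ± 0.12 in WT, and Cyb5r3 by −0.23 ± 0.06 and −0.28 ± 0.06. Hsd17b12, the ketoacyl-CoA reductase of elongation, rose in both (0.39 ± 0.07 and 0.47 ± 0.07), and Elovl7 (0.29 ± 0.07) and Hacd2 (0.26 ± 0.07) in WT. Elovl7 was dim, at 5.22 to 5.77 in WT arrays, where the 30th percentile of the arrays lay between 5.25 and 5.44.

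Of 16 other droplet and lipolysis genes 9 fell and 2 rose in S534A, and 10 fell and 2 rose in WT. The hormone-sensitive lipase gene Lipe changed by −0.70 ± 0.09 in S534A and −0.73 ± 0.09 in WT, the seipin gene Bscl2 by −0.63 ± 0.08 and −0.67 ± 0.08, and Ces1d by −0.55 ± 0.08 and −0.52 ± 0.08. The risers were Hilpda, an inhibitor of the lipase encoded by Pnpla2 (0.40 ± 0.08 in S534A and 0.35 ± 0.08 in WT), and Rab18 (0.74 ± 0.11 and 0.56 ± 0.11). Of 16 genes of fatty acid uptake and lipoprotein export 4 fell and 1 rose in S534A, and 4 fell and 3 rose in WT. Angptl8, an insulin-induced regulator of lipoprotein lipase, changed by −2.53 ± 0.33 in S534A and −2.00 ± 0.33 in WT, Slc27a4 by −0.41 ± 0.08 and −0.59 ± 0.08, and Tm6sf2, which aids VLDL lipidation, by −0.76 ± 0.21 and −0.78 ± 0.21. Angptl4, an inhibitor of lipoprotein lipase, rose in WT (1.01 ± 0.22), with 0.45 ± 0.22 in S534A, Fabp4 rose in both (0.95 ± 0.23 and 0.65 ± 0.23), and Apob in WT (0.16 ± 0.05).

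Markers of neutrophils, sinusoidal endothelium, Kupffer cells and stellate cells had 63.6% to 100% of their genes called after LPS in either genotype, against 45.4% of all genes in S534A and 44.9% in WT. Hepatocyte markers had 14.3% called in S534A and 28.6% in WT, and adipocyte markers 37.5% and 25%. All 12 neutrophil markers rose in both genotypes, with S100a9 at 2.87 ± 0.18 in S534A and 2.92 ± 0.18 in WT, and their mean log2 level per array ran from 7.73 to 8.36 after LPS and from 5.92 to 6.12 untreated. Of 11 sinusoidal endothelial markers 9 fell and 2 rose in both genotypes, Lyve1 and Cdh5 being higher, with means from 8.37 to 8.84 after LPS and from 9.72 to 9.91 untreated. Of 11 Kupffer cell markers 9 fell and 1, Marco, rose in both, with means from 7.78 to 8.37 after LPS and from 8.67 to 9.40 untreated. Of 11 stellate cell markers 7 fell in both, and 1, Ngfr, rose in S534A, with means from 8.24 to 8.48 after LPS and from 8.86 to 9.03 untreated. Of 7 hepatocyte markers Fgb rose in both genotypes and Hnf4a in WT, with means from 13.56 to 13.66 after LPS and from 13.47 to 13.58 untreated. Of 8 adipocyte markers 2 fell and 1 rose in S534A, and 1 fell and 1 rose in WT. Fabp4 was the riser, Lipe fell in both and Car3 in S534A, Fabp4 and Lipe being among the pathway genes above as well, while Adipoq stood at 0.03 ± 0.20 in S534A and −0.09 ± 0.20 in WT. Their means ran from 7.30 to 7.96 after LPS and from 7.36 to 7.73 untreated. The part of these cell types in the changes of the members was not tested.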

How the data were processed

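Liver RNA was converted to labelled cDNA by whole-transcript amplification, per the labels' protocols. The deposited values, 1 column per sample, are log2 intensities, a scale read from their range of 3.49 to 14.54. RMA is named in the submitters' processing notes, with no version among the sources used here. The platform annotation gave 21789 of 35556 probe sets 1 gene symbol, 1621 several and 12146 none. Probe sets with 1 symbol were kept when above the 30th percentile of their array in at least 4 of 16 arrays, with 1 probe set per gene (highest mean), which left 15908 genes. Only Acaca and Me1 among the members had more than 1 probe set.

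limma 3.58.1 in R 4.3.3 fitted 4 group means over 16 arrays with no covariate (12 residual and 4.28 prior degrees of freedom, two-sided, Benjamini-Hochberg). It was tested on simulated data. The members, gene lists, motifs and the alternative without 3 arrays were chosen with earlier results of these data known. Named genes were all members (array values for the 12 of largest mean absolute LPS change and the regulators), the 5 lowest p between genotypes, and up to 3 genes of lowest p, or any of 3 or fewer calls in a direction, from each other list. Elovl6, Cideb, Lpin1 and Pnpla2 got array values, Plin4 got those of its highest arrays, and Adipoq, Retn, Plin1, Lep and Cidea were named, after their values were seen. No scanner signal was used, so brightness over background is unknown, and precision depends on 4 arrays a group. Figures used Python 3.11.15 and matplotlib 3.10.9.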

Additional observations from a re-analysis of the deposited data

Results flagged for a closer look

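A gap test of the highest and lowest array was made for the 35 tested members in 4 groups, 140 groups of values in all, and set 7 arrays apart from the other 3 of their group (the gap as a share of the group's range above Dixon's 95% critical value). Chance sets apart about 1 in 20 such groups. Untreated S534A array 1 was the lowest for Gpam (10.89, others 11.05 to 11.08), Pnpla3 (6.33, others 6.59 to 6.61) and G0s2 (7.93, others 8.94 to 9.12). Untreated S534A array 2 was the highest for Plin4 (7.11, others 6.84 to 6.87). LPS-treated S534A array 4 was the highest for Acacb (9.69, others 8.87 to 9.01), and LPS-treated S534A array 1 for Elovl2 (12.26, others 11.92 to 11.96). LPS-treated WT array 2 was the highest for Aacs (9.26, others 8.33 to 8.42).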

How the results depend on the processing

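Of the calls after LPS, 21 of 25 in S534A and 20 of 23 in WT held in every setting tried other than the stricter thresholds. With an adjusted p under 0.01, S534A gave 0 members higher and 20 lower, and WT 1 higher and 20 lower. Of all genes 25.1% in S534A and 23.7% in WT were then called lower, with 1700 and 1886 genes higher. With a 1.5-fold minimum, S534A gave 1 higher and 13 lower and WT 2 higher and 12 lower. Array quality weights gave 4 higher in each genotype and 1 lower in untreated S534A against WT, and the clock score as covariate also gave 4 higher in each. Over all genes the weights called 3399 higher and 5868 lower in S534A, in place of 2258 and 4967. In WT they called 2552 and 5221, in place of 2377 and 4762. Centring each array on its median gave 1 higher in WT, and leaving out the 3 arrays with a shifted clock 0. The cause of these shifts was not tested. Leaving out each array in turn gave 2 to 3 higher and 21 to 23 lower in S534A and 1 to 4 higher and 21 to 22 lower in WT, the fewest risers without untreated WT array 3 and the most without untreated WT array 2. No call reversed in any setting. With the replicate block, S534A gave 23 lower and 3 higher, Elovl6 being added (0.41, adjusted p = 0.0487), and WT 21 and 2. In the sample titles same-numbered arrays share only a number, and what else they may share is unknown. Their correlations of deviations ran from −0.49 to 0.59, with 9 of 24 over 0.1. Of the 16 arrays, 6 correlated best with an array of their own number. Over all genes, the 1.5-fold minimum left 3286 calls in S534A, in place of 7225, and 3158 in WT, in place of 7139. Calls between untreated genotypes were 370 with array quality weights and 0 to 7 otherwise, in place of 2, and those of the interaction 3 with weights and up to 2 otherwise, in place of 0.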
